A study of Mus musculus with 2 samples.

Results

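The genes described here are 10 members of the immediate early response: the AP-1 subunits Jun, Junb, Jund, Fos, Fosb and Fosl2, the related factor Atf3, the zinc finger factor Egr1, the nuclear protein gene Ier2 and the phosphatase gene Dusp1. They were taken as a list of symbols from 55536 annotated genes, and all 10 were found. The list applies no threshold on measured values, but it was drawn up with earlier results of these data known. AP-1 is a dimer of basic leucine zipper proteins. A Jun protein pairs with another Jun protein, a Fos protein or an ATF protein, whereas Fos does not form stable dimers with itself. Immediate early genes are transcribed within minutes of a stimulus such as a growth factor, stretch or stress, without new protein synthesis, and many of their messages are short-lived. In the heart they are known for their response to pressure load, catecholamines and ischaemia, and some of them also respond to the handling of tissue.

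Total RNA was sequenced from hearts of adult male mice, 8 to 10 months old, of a cross of the strains 5xFAD and CAST supplied by the Jackson Laboratory. The 5xFAD line models brain amyloid deposition through human transgenes driven by a Thy1 promoter active in neurons, and CAST mice are inbred and of wild origin. The labels do not say whether the animals carried the transgene, and they give no treatment. There was 1 group of 2 libraries, numbered here as in the labels' biological replicates, library 2 and library 1. The tissue samples were separate but listed under 1 donor identifier, so differences between the libraries may be technical. No conditions could be compared, and no p-value is given.

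Library 2 held 37060119 expected counts and library 1 held 39819960, and 11990 genes reached a TPM of 1 in library 2 and 12037 in library 1. TPM is the usual abundance unit of RNA sequencing, scaled for transcript length and library total. All 6 cardiomyocyte markers, among them Myh6 and Myl2, were present, with a summed level of 25881 TPM in library 2 and 26102 TPM in library 1. The libraries differed in fat and atrial markers. The 6 adipocyte markers summed to 39.4 TPM in library 2 and 10.6 TPM in library 1, and the 4 atrial markers to 1551 TPM in library 2 and 1163 TPM in library 1. All 10 of these markers were higher in library 2, and none of them was at 0. Of 7 endothelial markers, 6 were lower in library 2, all but Fabp4, which fat cells also express, and the list summed to 432 TPM in library 2 and 427 TPM in library 1. All 6 fibroblast markers were lower in library 2 by TPM, with sums of 182.5 TPM in library 2 and 194 TPM in library 1. So were all 6 mural markers, at 146 TPM in library 2 and 162 TPM in library 1. Col1a1 was nearly level, at 12.75 TPM in library 2 and 12.83 TPM in library 1. In the second deposited quantification Col3a1 and the endothelial marker Cdh5 were higher in library 2. Col3a1 stood at 37.2 TPM in library 2 against 35.8 TPM in library 1, and Cdh5 at 53.2 TPM against 48.9 TPM. Of 11940 genes with a mean of at least 1 TPM and at least 10 counts in a library, 51.2% were lower in library 2. In the fibroblast list and in the mural list 2 of 6 markers had a count-ratio interval (explained below) below 1, against 10.4% of genes. In bulk tissue a lower share of cells of a type and less RNA per cell cannot be told apart.

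Levels of the members spanned a wide range, with Jund, Dusp1 and Jun at the top and Fosb and Atf3 at the bottom. Jund, the Jun subunit usually present in resting cells, stood at 30.9 TPM in library 2 and 26.8 TPM in library 1 (28.9 ± 2.93, SD, n = 2). Only 15.6% of the 10999 protein-coding genes with a mean of at least 1 TPM lay above it, and the median of those genes was 7.34 TPM. Jun, the founding subunit and a substrate of the JNK kinases, stood at 17.7 TPM in library 2 and 12.2 TPM in library 1 (15.0 ± 3.84). Junb, which often restrains the activity of Jun, stood at 4.76 TPM in library 2 and 5.68 TPM in library 1 (5.22 ± 0.651). Jund therefore held 58.0% of the Jun family level in library 2 and 59.9% in library 1. On expected counts, with no scaling for length, its share was 45.3% ± 2.42. The annotated transcript of Jun is 3189 bases long and that of Jund 1668 bases.

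The Fos family was led by Fosl2, also called Fra-2, a subunit with a slower and longer response than Fos. It stood at 5.12 TPM in library 2 and 4.68 TPM in library 1 (4.90 ± 0.311). Fos, the classical stimulus-induced subunit, stood at 1.54 TPM in library 2 and 2.5 TPM in library 1 (2.02 ± 0.679). Fosb stood at 0.63 TPM in library 2 and 1.03 TPM in library 1 (0.830 ± 0.283). Fosl1, the remaining family gene and no member here, had 0 counts in both libraries, which allows up to 3 counts in each. Fosl2 held 70.2% of the Fos family level in library 2 and 57% in library 1, while Fos held 21.1% in library 2 and 30.5% in library 1.

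The Jun family sum exceeded the Fos family sum in both libraries. It was 53.4 TPM against 7.29 TPM in library 2, a ratio of 7.32, and 44.7 TPM against 8.21 TPM in library 1, a ratio of 5.45 (6.38 ± 1.32). The second deposited quantification gave 6.38 ± 1.58, and expected counts gave 3.23 ± 0.508. The Jun family was above the Fos family by each of these measures, while the size of the ratio depended on the scaling for length. Entries not annotated as protein coding held on average 28.2% of Fosl2 TPM, 44.8% of Fos TPM and 67.1% of Fosb TPM. Jun and Jund have no such entries, and that of Junb held 1.32%. The ratio was not computed for protein-coding transcripts only. Amounts of protein were not measured.

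The members outside the AP-1 core lay between 0.865 and 15.0 TPM on average. Dusp1, a phosphatase that switches off MAP kinases and is itself induced early, stood at 13.8 TPM in library 2 and 16.3 TPM in library 1 (15.0 ± 1.72). Ier2, which encodes a small nuclear protein, stood at 4.71 TPM in library 2 and 5.62 TPM in library 1 (5.17 ± 0.643). Egr1, a factor induced through serum response elements, stood at 1.93 TPM in library 2 and 2.86 TPM in library 1 (2.40 ± 0.658). Atf3, a stress-induced partner of Jun proteins, stood at 0.78 TPM in library 2 and 0.95 TPM in library 1 (0.865 ± 0.120). In all, 8 of the 10 members reached 1 TPM in both libraries, all but Fosb and Atf3.

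**Figure D1:**
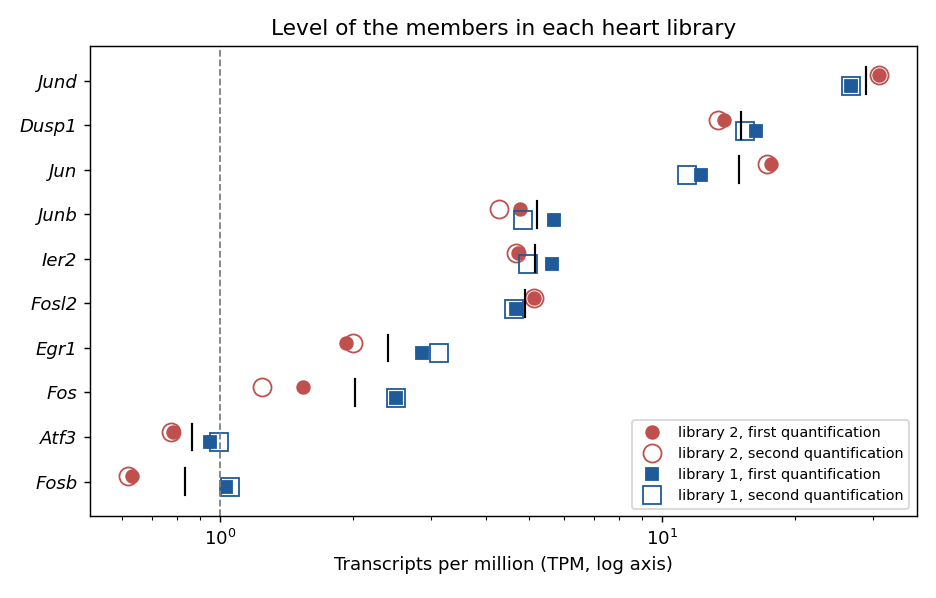
Level of each member in TPM on a log axis, with library 2 as circles above library 1 as squares; filled symbols are the first quantification, open symbols the second, short vertical lines the mean of the first, and the dashed line 1 TPM. Jund lies highest at 28.9 TPM on average, and Atf3 and Fosb lie lowest at 0.865 and 0.830 TPM.

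The order fell into 5 levels whose neighbours did not overlap. Jund stood 1.92 times above Dusp1, and the ranges of the libraries did not overlap in either quantification. Dusp1 and Jun overlapped and could not be ordered. Jun stood 2.86 times above Junb, and the trio of Junb, Ier2 and Fosl2 overlapped among neighbours in both quantifications. Fosl2 stood 2.05 times above Egr1, and Egr1 and Fos overlapped. Fos stood 2.34 times above Atf3, and Atf3 and Fosb overlapped. In the second quantification the mean of a member was 0.874 to 1.07 times its mean in the first, and the only change was the order within the trio, with Fosl2 first, then Ier2 and Junb.

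Between the libraries the members did not move as a block. Of the 8 members with a mean of at least 1 TPM and at least 10 counts in a library, 0 differed 2-fold, against 0.603% of the 11940 genes that met the same limits. An exact (Clopper-Pearson) 95% interval of the count ratio, library 2 over library 1, lay above 1 for 3 members, against 12.8% of genes, and below 1 for 3 members, against 10.4% of genes. These intervals cover counting error only and say nothing about the spread between animals. The 3 higher in library 2 were Jun at a ratio of 1.46 (1.36 to 1.57), Jund at 1.17 (1.08 to 1.26) and Fosl2 at 1.11 (1.001 to 1.22). The call of Fosl2 was lost under other scalings, with 1.10 (0.995 to 1.21) under TMM factors and 1.09 (0.990 to 1.21) under DESeq2 size factors, which left 2 members above 1. The 3 lower in library 2 were Egr1 at 0.694 (0.576 to 0.835), Fos at 0.713 (0.523 to 0.967) and Dusp1 at 0.845 (0.767 to 0.930). The intervals of Junb, 0.866 (0.731 to 1.03), and Ier2, 0.847 (0.703 to 1.02), held 1. Of the pair below the limit, Fosb had a ratio of 0.618 (0.453 to 0.837) and Atf3 of 0.930 (0.610 to 1.41).

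The counts behind these ratios were low for several members. Fos had 73 counts in library 2 and 110 in library 1, and Fosb 69 in library 2 and 120 in library 1. Atf3 had 45 counts in library 2 and 52 in library 1, and Egr1 192 in library 2 and 297 in library 1. Jun had 1703 counts in library 2 and 1254 in library 1. On the log2(TPM + 1) scale Jun differed by 0.50 and Fos by -0.46 between library 2 and library 1. Both lay outside the range of -0.42 to 0.44 that held the central 95% of genes. A log2 ratio at least as large in size as that of Jun was found in 3.41% of genes, and as that of Fos in 4.18%. The range and these shares cover genes of all levels and were not matched for counts. The median log2 ratio was -0.21 over the 8 members and -0.01 over all genes. The adipocyte and atrial markers given above, the endothelial markers in the first quantification, and some of the fibroblast and mural markers also differed between the libraries. Their part in these ratios was not tested.

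**Figure D2:**
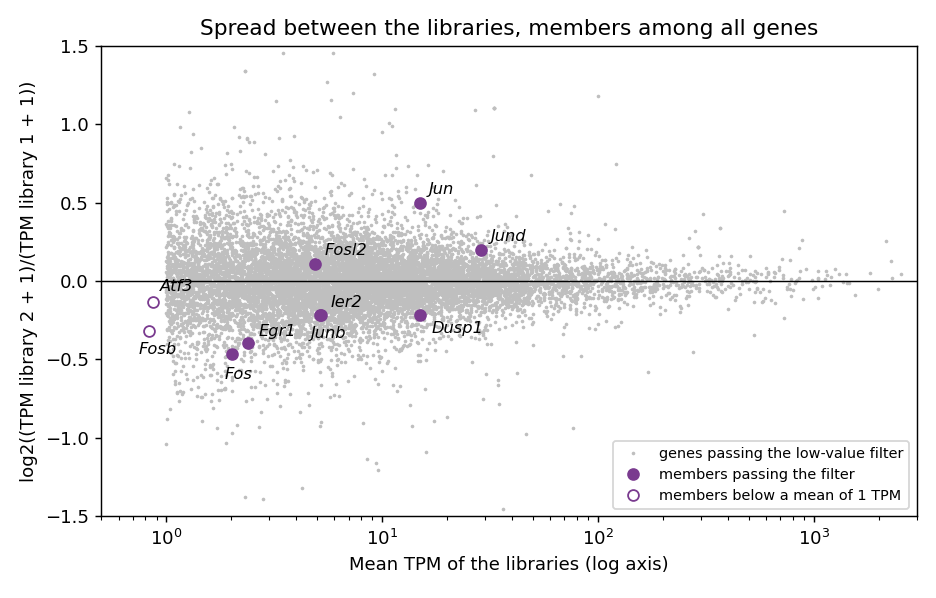
Difference between the libraries, log2((TPM in library 2 + 1)/(TPM in library 1 + 1)), against mean TPM on a log axis for all 11940 genes that passed the limits on low values (grey), with the members in purple; open circles mark the pair below a mean of 1 TPM, and 72 genes beyond a log2 ratio of 1.5 in size or a mean of 3000 TPM lie outside the plot. Jun at 0.50 and Fos at -0.46 lie on opposite sides of 0.

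For Dusp1 and Fos, part of the difference sat on transcripts that the annotation does not call protein coding. Dusp1, Fosl2, Fos, Fosb, Junb and Atf3 have such entries, which are annotated as retained introns or processed transcripts. For Dusp1, the protein-coding transcripts summed to 11.3 TPM in library 2 and 11.7 TPM in library 1, while the other entries summed to 2.5 TPM in library 2 and 4.6 TPM in library 1. One of them, a retained-intron entry of 2313 bases, had 55 counts in library 2 and 181 in library 1, a ratio of 0.326 (0.237 to 0.444). With protein-coding transcripts only, the count ratio of Dusp1 was 0.977 (0.878 to 1.09), so the interval then held 1.

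The Fos pattern was alike in direction but rested on few counts. Its protein-coding transcript Fos-201 stood at 0.96 TPM in library 2 and 1.2 TPM in library 1, and the processed transcript Fos-203 at 0.58 TPM in library 2 and 1.30 TPM in library 1. The coding-only count ratio was 0.806 (0.567 to 1.14), and that of the other entries, with 13 counts in library 2 and 30 in library 1, was 0.466 (0.223 to 0.920). For Fosl2 the coding-only count ratio was 1.11 (1.003 to 1.24). Fosb, below the limit on mean TPM, went the other way. Its coding-only count ratio, from 21 counts in library 2 and 42 in library 1, was 0.537 (0.302 to 0.928). That of its other entries was 0.661 (0.452 to 0.959), so both intervals lay below 1. Jun, Jund, Ier2 and Egr1 had no counts on other entries, so the comparison does not bear on them. This comparison was chosen after the values were seen.

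Fosb stood apart in where its reads were assigned. The single-exon retained-intron entry Fosb-204 held 69.8% of its TPM in library 2 and 64.4% in library 1, and 3.94% of the 8908 expressed protein-coding genes with such entries had a larger share outside coding transcripts. For Fos the share was 37.7% in library 2 and 52.0% in library 1, for Fosl2 27.9% in library 2 and 28.4% in library 1, and for Dusp1 18.1% in library 2 and 28.3% in library 1, against a median of 11.6% over those genes. The coding TPM of Fosb was only 0.19 in library 2 and 0.37 in library 1. It was placed on Fosb-203 in the first quantification and almost wholly on Fosb-205 in the second, so its coding isoform is not settled by these files. Atf3 and Egr1 have more than 1 coding transcript with reads. The Atf3 transcript of 1984 bases stood at 0.39 TPM in library 2 and 0.80 TPM in library 1. The one of 1906 bases had 22 counts in library 2 and 0 counts in library 1, where 0 allows up to 3 counts. That limit covers counting error only and not the assignment of reads between transcripts. The coding transcripts of Atf3 together had 45 counts in library 2 and 50 in library 1, a ratio of 0.967 (0.632 to 1.48). The Egr1 transcript of 3036 bases held 82.4% of the Egr1 level in library 2 and 86.3% in library 1, and the one of 4484 bases held the rest. Total RNA libraries contain unspliced RNA, and reads of a retained-intron entry and of precursor RNA were not separated.

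**Figure D3:**
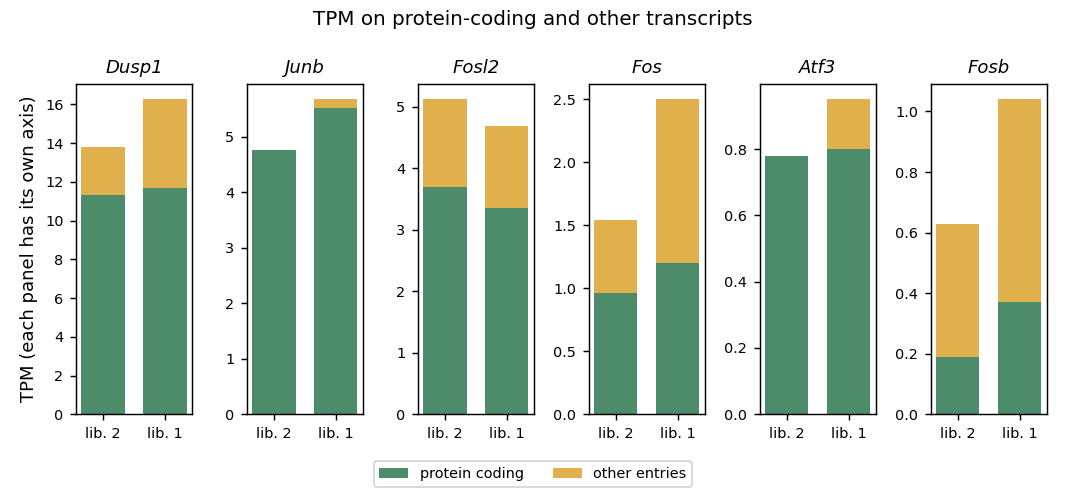
TPM on protein-coding transcripts (green) and on other annotated entries (yellow, stacked) in library 2 (left bar) and library 1 (right bar) for the 6 members that have both; each panel has its own axis from 0. For Dusp1 the green bars reach 11.3 and 11.7 TPM while the yellow parts measure 2.5 and 4.6 TPM, and for Fosb the yellow part holds 69.8% of the left bar and 64.4% of the right bar.

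**Figure D4:**
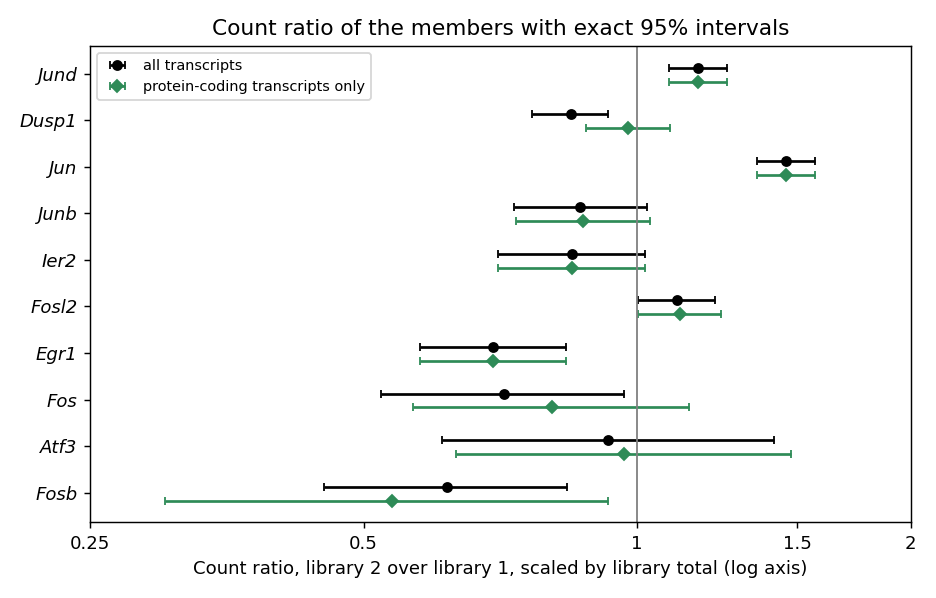
Count ratio of library 2 over library 1 on a log axis, scaled by library total, for all transcripts of each member (black circles) and for protein-coding transcripts only (green diamonds); bars are exact 95% intervals for counting error. The bars of Dusp1 and Fos reach across 1 when only coding transcripts are counted; for Jun, Jund, Ier2 and Egr1, which have no counts on other entries, both bars are the same by construction.

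Most of the members are compact genes. All 10 leading protein-coding transcripts had at most 4 exons, which held for 21.8% of 10986 expressed protein-coding genes, and Jun, Junb, Jund and Ier2 had a single exon, as did 2.41% of those genes. The median genomic span of the leading transcript was 3287 bases for the members and 21927 bases for expressed protein-coding genes. Fosl2, with a span of 22042 bases, lay above the latter median, and Atf3 spanned 13045 bases. In mm10 coordinates Jun lies on the minus strand of chromosome 4 (95049034 to 95052222), Junb on the minus strand of chromosome 8 (84974484 to 84978718) and Jund on the plus strand of chromosome 8 (70698949 to 70700616). Fos lies on the plus strand of chromosome 12 (85473890 to 85477273), Fosb on the minus strand of chromosome 7 (19302696 to 19310051) and Fosl2 on the plus strand of chromosome 5 (32135801 to 32157842). Atf3 lies on the minus strand of chromosome 1 (191170296 to 191218039), Dusp1 on the minus strand of chromosome 17 (26505590 to 26562128), Ier2 on the minus strand of chromosome 8 (84661331 to 84662852), and Egr1 on chromosome 18.

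Several members share their position with a gene on the other strand. The antisense gene Junos overlaps Jun and stood at 0.39 TPM in library 2 and 0.46 TPM in library 1, and the antisense gene Gm11175 overlaps Jund and stood at 1.93 TPM in library 2 and 2.28 TPM in library 1. The span of Junb reaches the peroxiredoxin gene Prdx2 through a minor transcript, and that of Dusp1 reaches Ergic1. The library kit keeps strand, but whether the counting used it is not given in the sources used here, so reads of a gene and of its antisense partner may not have been told apart.

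Many immediate early promoters carry a cyclic AMP response element (CRE), bound by CREB and ATF proteins, as TGACGTCA or as the shorter TGACG. Promoter sequence from 250 bases before to 50 bases after the start site was taken from RefSeq (GRCm38.p6). It matched 8 of the 10 members, all but Egr1 and Ier2, whose promoters were therefore not searched for any motif. Letters were searched on both strands. The shares of all promoters given below were neither matched for base content nor limited to expressed genes. The letters TGACG were present in 5 of the 8, namely Fos, Fosb, Junb, Atf3 and Dusp1, and in 20.8% of all 32851 promoters. The stretches around these matches are shown because they are what the 5 promoters share, each 5′ to 3′ on the strand of its gene, with the match in capitals (on the opposite strand, as CGTCA, in Atf3).
Fos, chr12:85473806-85473846, plus strand: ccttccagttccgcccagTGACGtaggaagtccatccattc
Fosb, chr7:19310083-19310123, minus strand: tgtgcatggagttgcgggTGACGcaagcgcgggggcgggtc
Junb, chr8:84978832-84978872, minus strand: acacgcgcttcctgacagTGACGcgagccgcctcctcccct
Atf3, chr1:191183334-191183358, minus strand: aagctattaatagcattaCGTCAgc
Dusp1, chr17:26508593-26508633, minus strand: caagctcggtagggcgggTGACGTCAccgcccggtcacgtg

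The match began at position -66 from the RefSeq start in Fos, -60 in Fosb, -106 in Junb, -7 in Atf3 and -143 in Dusp1. Fos held a further match at -129 and Dusp1 another at -191. Only Dusp1 had the full palindrome TGACGTCA, which 1.79% of promoters had and which contains the shorter letters on both strands. The AP-1 site TGACTCA was in 0 of the 8 windows, against 5.20% of promoters, and the CArG box of serum response factor in 0 of the 8, against 1.63%. The GC box GGGCGG was in 6 of the 8, against 35.7% of promoters, and the TATA box letters TATAAA, searched on the gene's strand, in Fos at -33 and in Junb at 1, against 8.32%. A match is a description of letters and not of binding, which was not measured, and letters outside the window were not searched. The windows of Jund and Fosl2 do not cover the GENCODE start used for the counts. That start lies 1210 bases downstream of the RefSeq start in Jund and 671 bases upstream in Fosl2. In Junb it lies 30 bases downstream, in Atf3 7 bases upstream and in Dusp1 47 bases upstream. Positions such as 1 for the TATA letters of Junb and -7 for the Atf3 match therefore hold for the RefSeq start only.

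**Figure D5:**
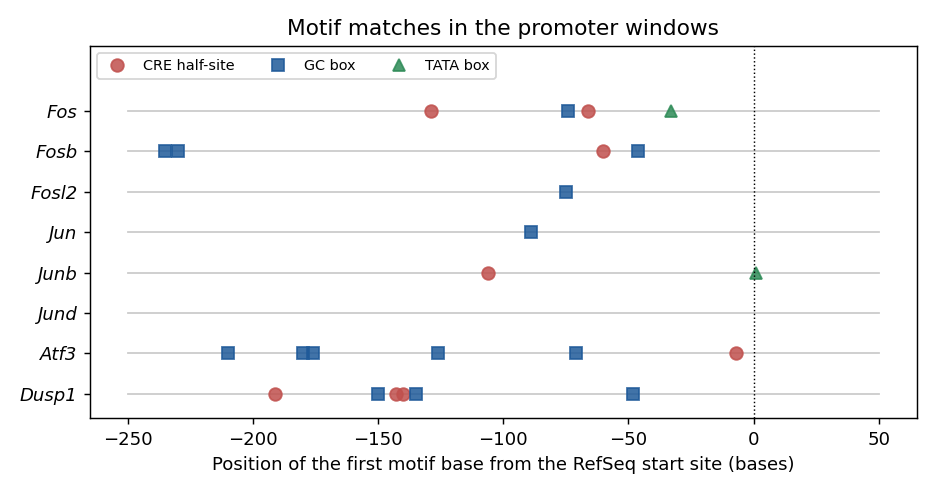
Position of the first base of each motif match, in bases from the RefSeq start site (dotted line), for the CRE letters TGACG (red circles), the GC box GGGCGG (blue squares) and the TATA box TATAAA (green triangles) in the 8 promoter windows (grey lines). The red circles of Fos at -66 and of Fosb at -60 lie close to each other, and Jund has no symbol.

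Short-lived messages often carry AU-rich elements in the 3′ untranslated region, which recruit decay factors of the Zfp36 family. The heptamer TATTTAT, the DNA form of a core of such elements, was searched on the gene's strand of the leading coding transcript, a search added after the levels were seen. At least 1 copy was present in 7 of the 10 members, against 26.7% of 10597 expressed protein-coding genes, and at least 2 copies in 3 members (Dusp1 with 3, Fosl2 with 3 and Fos with 2), against 8.74%. Pooled over their sequence, the members held 0.877 copies per 1000 bases and the expressed genes 0.290, while the median length of the region was 1001 bases for the members and 906 bases for the expressed genes. Egr1, Ier2 and Junb had 0 copies. A site from each of 4 members is shown (mm10, 5′ to 3′ on the strand of the gene, T for U, heptamer in capitals). They are a pair lower and a pair higher in library 2 on counts over all transcripts.
Fos, chr12:85477103-85477132, plus strand: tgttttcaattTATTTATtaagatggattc
Dusp1, chr17:26506158-26506187, minus strand: gagctggtcctTATTTATttaacacccccc
Jun, chr4:95049078-95049107, minus strand: ttgcttgtgcaTATTTATaatagcgttcgt
Jund, chr8:70700359-70700388, plus strand: cgattccgcccTATTTATgtttctactcgg

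The heptamer was searched in coding transcripts, while the split between the libraries was by counts over all transcripts. On those counts Fos at 0.713, Dusp1 at 0.845, Jun at 1.46 and Jund at 1.17 carried it, as ratios of library 2 over library 1. With coding transcripts only, the intervals of Fos, 0.806 (0.567 to 1.14), and Dusp1, 0.977 (0.878 to 1.09), held 1. Egr1, at 0.694 and with no counts on other entries, had 0 copies. The part of the heptamer in these ratios was not tested. All sequences are those of the reference genome, and alleles of the CAST strain were not analysed here.

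Other immediate early genes were measured from a list of 40. Of these, 30 reached 1 TPM in both libraries, led by the small GTPase Rhob (46.8 ± 1.51 TPM), the survival factor Mcl1 (42.8 ± 0.841), the serum response factor Srf (26.7 ± 0.0495) and the matricellular gene Cyr61 (22.3 ± 2.83). The same genes included no other Egr factor. Egr2, Egr3 and Egr4 were at or below 0.18 TPM in every library, and the neuronal factor Npas4 had 0 counts in library 2 and 2 in library 1. Of the 30, 11 had an interval above 1, against 12.8% of all genes, and 7 an interval below 1, against 10.4%. This list too was therefore split. Intervals narrow as counts rise, and some calls were small, as for Mcl1 at 1.05 (1.01 to 1.10) and Rhob at 1.06 (1.01 to 1.11). The shares of all genes, here and for the other lists, were not matched for counts. The kinase gene Sgk1, at 14.4 TPM in library 2 and 9.31 TPM in library 1, and the cell cycle inhibitor Cdkn1a, at 2.73 TPM in library 2 and 4.29 TPM in library 1, had the widest log2 ratios, 0.57 and -0.50. The median of the list was 0.03, and 0.01 in the second quantification.

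Other bZIP genes that pair with AP-1 subunits or bind related sites were led by Atf6 (21.2 ± 1.85 TPM), Cebpb (20.7 ± 4.44), Nfe2l2 (18.8 ± 0.537) and Atf7 (16.2 ± 0.566), and 16 of 20 reached 1 TPM in both libraries. Of these 16, 2 had an interval above 1 and another 2 an interval below 1, near the 12.8% and 10.4% of all genes, so these counts do not set the list apart. The widest log2 ratios were those of Cebpb, at 23.8 TPM in library 2 and 17.5 TPM in library 1, and Atf4, at 18 TPM in library 2 and 13.6 TPM in library 1. In the first quantification the 4 leading means of this list lay between those of Jun and Jund and above those of the Fos family. The ranges of Atf7 and Cebpb overlapped that of Jun, so they could not be ordered against it. In the second quantification Atf7 stood at 10.2 TPM, below Jun at 14.3 TPM and Atf4 at 16.0 TPM.

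Upstream of the members, 22 of 24 MAP kinase pathway genes and linked factors reached 1 TPM in both libraries, among them Map2k2 (41.8 TPM), Map2k3 (26.7) and Map2k7, an activator of JNK (23.8). Their median log2 ratio was 0.09, and 0.04 in the second quantification, with 4 intervals above 1 and 2 below, against 12.8% and 10.4% of all genes. The widest log2 ratios were 0.51 for Rps6ka1 and 0.39 for Rps6ka5, both ribosomal S6 kinase genes. The counts of Rps6ka1, 141 in library 2 and 136 in library 1, gave a ratio of only 1.11 (0.874 to 1.42), which held 1. Of 9 further dual specificity phosphatases, 7 reached 1 TPM in both libraries, led by Dusp3 (44.9 TPM), Dusp7 (20.2), Dusp8 (8.40) and Dusp16 (6.33), with 1 interval above 1 and 1 below, near the 12.8% and 10.4% of all genes. By level Dusp1 lay between Dusp7 and Dusp8. The widest log2 ratios in that list were -0.16 for Dusp10 and -0.14 for Dusp6.

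Of 18 genes described as AP-1 targets, 10 reached 1 TPM in both libraries, among them the natriuretic peptide gene Nppa (730 ± 159 TPM), the actin gene Acta1 (195 ± 16.0) and cyclin D1, Ccnd1 (17 ± 1.44). Of the 10, 4 had an interval above 1, against 12.8% of all genes, and 2 an interval below 1, against 10.4%. Nppa, at 842 TPM in library 2 and 617 TPM in library 1, had the widest log2 ratio of the list, 0.45, but it is also 1 of the 4 atrial markers that were all higher in library 2. Fibronectin, Fn1, followed with 0.35. Il6 had 0 counts in both libraries.

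Genes known to respond to tissue handling and heat were also measured, since immediate early genes can do the same. Of 15 such genes 13 reached 1 TPM in both libraries, among them the chaperones Hspa8 (375 TPM), Hsp90ab1 (362 TPM) and Hspb1 (104 TPM). The inducible Hsp70 genes Hspa1a and Hspa1b, near-identical copies whose reads can be split between them, were low, at 0.47 and 0.66 TPM in library 2 and 0.56 and 0.46 TPM in library 1. The median log2 ratio of the list was 0.05, and 0.16 in the second quantification, with 6 intervals above 1 and 1 below, against 12.8% and 10.4% of all genes. The widest log2 ratios were -0.32 for Ppp1r15a and 0.18 for Dnaja1. The part of handling in the levels of the members was not tested.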

How the data were processed

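Genome build mm10 and GENCODE M21 gene models were used, per the deposited readme. The aligner, the versions of the authors' tools and their use of strand: not given in the sources used here. Libraries were made from 300 ng of ribosome-reduced RNA with a directional kit and spike-ins, per the labels. The authors deposited expected counts, TPM and FPKM per gene and transcript, called the first quantification, and estimated counts and TPM per transcript in a kallisto layout, the second quantification, summed here per gene. Expected counts were rounded for intervals.

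The log2 ratio was log2((TPM in library 2 + 1)/(TPM in library 1 + 1)), which understates ratios of low genes. Count ratios were scaled by the total over annotated genes and carry an exact 95% interval for counting error. Ratios were read where the mean TPM was at least 1 and a library had at least 10 counts. Alternatives used TMM factors (edgeR 4.0.16) and size factors (DESeq2 1.42.0) in R 4.3.3, without a test. Intervals came from scipy 1.17.1, tables were handled with pandas 2.3.3 and numpy 2.4.6 under Python 3.11.15, and figures were drawn with matplotlib 3.10.9. The interval step was tested on simulated counts that held only the counting error it assumes. Error in assigning reads to genes and transcripts was not covered by that test.

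The 10 members and all lists were chosen with earlier results of these data known. Every member is named. Of each list, the 4 genes with the highest mean TPM and the 2 with the widest log2 ratio at a mean of at least 1 TPM are named. Some genes that this rule takes are not reported here. Fosl1, the Egr genes, Npas4, Il6, Hspa1a and Hspa1b were named after their values were seen. Older symbols were matched through RefSeq synonyms.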

Additional observations from a re-analysis of the deposited data

How the results depend on the processing

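The count of 8 members at 1 TPM or more in both libraries was 8 in the second quantification. Without replicate 1 or 2 it was 8 to 9. It was 10 at a limit of 0.5 TPM and 6 at a limit of 2 TPM. The count of members past 2-fold was 0 under every scaling, pseudocount and filter tried. The median log2 ratio of the members, -0.21, was -0.11 in the second quantification and -0.10 with coding transcripts only, an alternative chosen after seeing the data. Under that alternative the count of members with an interval below 1 was 1 in place of 3, since Dusp1 and Fos then held 1. The Jun to Fos family ratio of 6.38 was 3.23 on expected counts and 5.45 to 7.32 without replicate 1 or 2. It was not computed for coding transcripts only. The Jund share of 58.9% was 60.6% in the second quantification, 45.3% on expected counts and 58.0% to 59.9% without replicate 1 or 2. The count with an interval above 1, 3, was 2 under TMM and 2 under DESeq2 size factors, where the interval of Fosl2 held 1. No member whose interval excluded 1 reversed its direction under the alternatives tried. Depth limits Fos, Fosb and Atf3, with 45 to 120 counts in a library. No paired analysis was possible because there is 1 group.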
